A study of Homo sapiens with 6 samples.

Results

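The genes described here are the zinc finger genes of the human genome that carry a ZNF symbol and were expressed in DMSO-treated NALM6 cells. A gene was taken when its symbol in the authors' deposited log2 FPKM table was ZNF followed by a number, with or without a letter, and when its mean over the 3 DMSO-treated libraries in that table was at least 2.5 on the log2 scale, so that the genes were chosen by their symbol and by their measured DMSO level. Antisense genes and pseudogenes were not taken, and 1 ZNF gene was left out by the rule. The rule found 258 genes among the 366 ZNF genes of that table, and all 258 were matched by Ensembl identifier to the count table, which lists 57905 genes, 500 of them ZNF genes by name. Just inside the floor stood ZNF726 with a DMSO mean of 2.502 and ZNF782 with 2.504, and just outside stood ZNF169 with 2.490 and ZNF234 with 2.487.

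NALM6 is an established human cell line of B cell precursor acute lymphoblastic leukemia (B-ALL). The RNA-SEQ experiment compared NALM6 cells treated with 500 nM of THZ1, a covalent inhibitor of the transcriptional kinase CDK7, with NALM6 cells that received the solvent DMSO, and both treatments lasted 24 h. There were 3 libraries for each treatment, all from unmodified cells of this 1 line. The comparison asks which transcripts change in NALM6 cells exposed to THZ1. CDK7 was not blocked in any other way in these libraries, so the part of CDK7 in a change was not tested.

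ZNF proteins make up the largest family of human DNA-binding proteins. Most of them read DNA with arrays of C2H2 zinc fingers, short folds held together by a zinc ion bound by cysteines and histidines. Many also carry a KRAB domain, which recruits the co-repressor TRIM28 and, through it, the histone methyltransferase SETDB1, and which is best known for the silencing of transposable elements. A smaller set carries a SCAN domain, through which these proteins pair, and some proteins with a ZNF symbol work in RNA processing, ribosome assembly or mitosis. KRAB genes lie in long clusters of related copies, most of them on chromosome 19.

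The promoters of 6 of the genes that rose or fell most are shown first, because many start sites of ZNF genes held the same short motifs. Genes of chromosomes 8 and 18 were passed over in picking the promoters to show, among them ZNF703 and ZNF704. The choice of the ZNF genes did not use the motifs, but it used the DMSO level. Each run covers 250 bases before to 50 bases after a RefSeq start site on GRCh38.p14 and is written 5′ to 3′ along the gene. Capitals mark matches, on either strand, to the letters GGGCGG (the GC box bound by SP factors), CCAAT (the CCAAT box), TATAAA (the TATA box), CACGTG (the E box bound by MYC), CCGGAAG (an ETS motif) and TGACGTCA (the cyclic AMP response element). Matches of different motifs were counted apart, also where they overlapped. The first group rose after THZ1:
ZNF213, chr16:3134779-3135078, plus strand: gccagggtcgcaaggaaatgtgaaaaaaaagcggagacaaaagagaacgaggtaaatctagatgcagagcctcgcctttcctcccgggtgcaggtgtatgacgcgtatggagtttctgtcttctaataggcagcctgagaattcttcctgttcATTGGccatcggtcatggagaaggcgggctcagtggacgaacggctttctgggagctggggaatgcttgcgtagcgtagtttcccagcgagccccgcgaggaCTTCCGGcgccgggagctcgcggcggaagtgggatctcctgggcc
ZNF747, chr16:30534809-30535108, minus strand: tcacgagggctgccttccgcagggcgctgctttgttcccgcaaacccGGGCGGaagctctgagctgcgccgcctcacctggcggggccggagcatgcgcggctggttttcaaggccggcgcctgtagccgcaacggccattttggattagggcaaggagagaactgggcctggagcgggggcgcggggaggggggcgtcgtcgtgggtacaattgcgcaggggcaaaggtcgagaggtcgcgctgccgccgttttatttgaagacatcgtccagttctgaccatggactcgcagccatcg
ZNF768, chr16:30526517-30526816, minus strand: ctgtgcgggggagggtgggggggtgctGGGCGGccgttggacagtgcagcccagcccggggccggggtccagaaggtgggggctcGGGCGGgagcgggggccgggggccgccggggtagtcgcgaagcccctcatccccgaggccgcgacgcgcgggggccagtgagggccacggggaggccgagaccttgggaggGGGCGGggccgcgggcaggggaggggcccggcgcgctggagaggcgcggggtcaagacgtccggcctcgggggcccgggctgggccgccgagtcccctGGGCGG

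The second group fell after THZ1:
ZNF700, chr19:11924857-11925156, plus strand: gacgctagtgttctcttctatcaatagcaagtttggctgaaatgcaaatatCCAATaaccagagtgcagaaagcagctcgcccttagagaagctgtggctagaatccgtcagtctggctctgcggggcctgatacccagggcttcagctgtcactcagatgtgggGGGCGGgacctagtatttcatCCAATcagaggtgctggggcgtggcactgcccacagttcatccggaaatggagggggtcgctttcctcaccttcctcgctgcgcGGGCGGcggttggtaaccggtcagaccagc
ZNF839, chr14:102319496-102319795, plus strand: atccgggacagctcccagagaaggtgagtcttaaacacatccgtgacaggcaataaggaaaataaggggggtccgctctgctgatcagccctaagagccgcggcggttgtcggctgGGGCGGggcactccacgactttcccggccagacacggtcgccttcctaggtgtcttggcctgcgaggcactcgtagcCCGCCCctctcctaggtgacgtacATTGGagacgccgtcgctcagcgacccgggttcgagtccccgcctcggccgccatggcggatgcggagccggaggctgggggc
ZNF362, chr1:33256242-33256541, plus strand: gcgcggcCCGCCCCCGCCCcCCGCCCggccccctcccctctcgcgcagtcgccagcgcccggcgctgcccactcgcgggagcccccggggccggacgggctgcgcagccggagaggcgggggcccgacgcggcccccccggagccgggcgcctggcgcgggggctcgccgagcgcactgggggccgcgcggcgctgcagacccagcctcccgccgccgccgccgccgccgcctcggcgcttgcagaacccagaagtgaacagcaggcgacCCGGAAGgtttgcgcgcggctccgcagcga

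Of the 258 genes, 225 matched a RefSeq promoter, and the ETS motif was the one whose share differed most from that of all promoters. It stood in 93 of the 225 promoters (41.3%), compared with 2913 of 27305 promoters of all genes (10.7%). The GC box stood in 65.8% of the ZNF promoters against 44.6% of all promoters, and the CCAAT box in 50.2% against 35.7%. The TATA box was rarer, with 3.56% against 11.95%, while the E box was found in 6.67% against 7.43% and the cyclic AMP response element in 4.44% against 1.98%. The ZNF promoters were also richer in G and C, with a median of 62.3% compared with 58.3%. Among the promoters of genes called higher after THZ1, 12 of 23 (52.2%) held the ETS motif, and among those of genes called lower, 3 of 17 (17.6%) did. In the promoters shown, this motif is present in ZNF213 and ZNF362 and not found in ZNF747, ZNF768, ZNF700 and ZNF839. A match is a description of the letters and was not tested as a binding site. The promoters of all genes were not limited to genes above the DMSO floor. The parts of the floor and of the ZNF family in these shares cannot be told apart.

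The libraries held between 11015480 and 11164840 counts on genes with DMSO and between 7876402 and 8314306 with THZ1, so that 3 counts, the floor used for detection, correspond to at most 0.253 and 0.415 CPM (counts scaled to a common library size after TMM). This floor covers counting error only. The 10 genes with most counts took 5.32% to 5.52% of a DMSO-treated library and 13.2% to 14.02% of a THZ1-treated library. The B cell precursor markers were detected, 10 of 10, with a summed level of 3409 to 3637 CPM with DMSO and 1797 to 1829 CPM with THZ1. Of 8 markers of other blood cells, 3 exceeded 3 counts in any library, and NCAM1 was at 0 in all libraries. Their summed level was 3.88 to 4.51 CPM with DMSO and 10.7 to 12.4 CPM with THZ1, most of the difference being CD14, and their part in the results on ZNF genes was not tested.

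Expression of the ZNF genes was low to moderate. All 258 passed the filter on low counts, the lowest count of any of them in any library was 6, and 257 had at least 10 counts in every library. The mean level with DMSO ranged from 4.04 CPM for ZNF837 to 216 CPM for ZNF207, with a median of 21.1 CPM. Per unit of transcript length, the deposited DMSO mean was highest for ZNF22 at 7.97 on the log2 FPKM scale. Together the 258 genes took 0.838% to 0.932% of the counts of a DMSO-treated library and 0.921% to 0.943% of a THZ1-treated library, ranges that overlapped. After TMM scaling, the scale of the fold changes, their sum was 7891 to 8417 CPM with DMSO and 10103 to 10286 CPM with THZ1, which did not overlap. Replicate libraries differed little, with a median coefficient of variation of 9.19% with DMSO and 7.68% with THZ1. The methods describe their data in general as independent experiments, but the labels do not say whether the 3 libraries of a treatment came from separate cultures, so the p-values below measure the spread between libraries, which may be technical.

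THZ1 moved single ZNF genes far in both directions, whereas the middle of the family stood near 0. The median log2 fold change, THZ1 over DMSO after TMM scaling, was -0.0020 over the 258 genes, with quartiles of -0.64 and 0.80 and extremes of -3.73 and 3.26. A gene was called when edgeR's quasi-likelihood test gave an adjusted p-value below 0.05 and the log2 fold change reached 1.5 in either direction. By this rule 29 ZNF genes were called higher and 20 lower, together 18.99% of the family, while 37.5% of all 16622 genes tested were called (24.6% higher and 12.9% lower). With the p-value alone and no threshold on the fold, 108 were higher, 97 lower and 53 not called, compared with 84.5% of all genes called (43.5% higher and 41.1% lower). The libraries of the treatments did not overlap for 206 of the 258 genes (79.8%), against 84.7% of all genes. In RNA from whole cultures, fewer cells of a kind and less RNA per cell cannot be told apart, and fold changes are relative to the middle of the transcriptome.

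**Figure D1:**
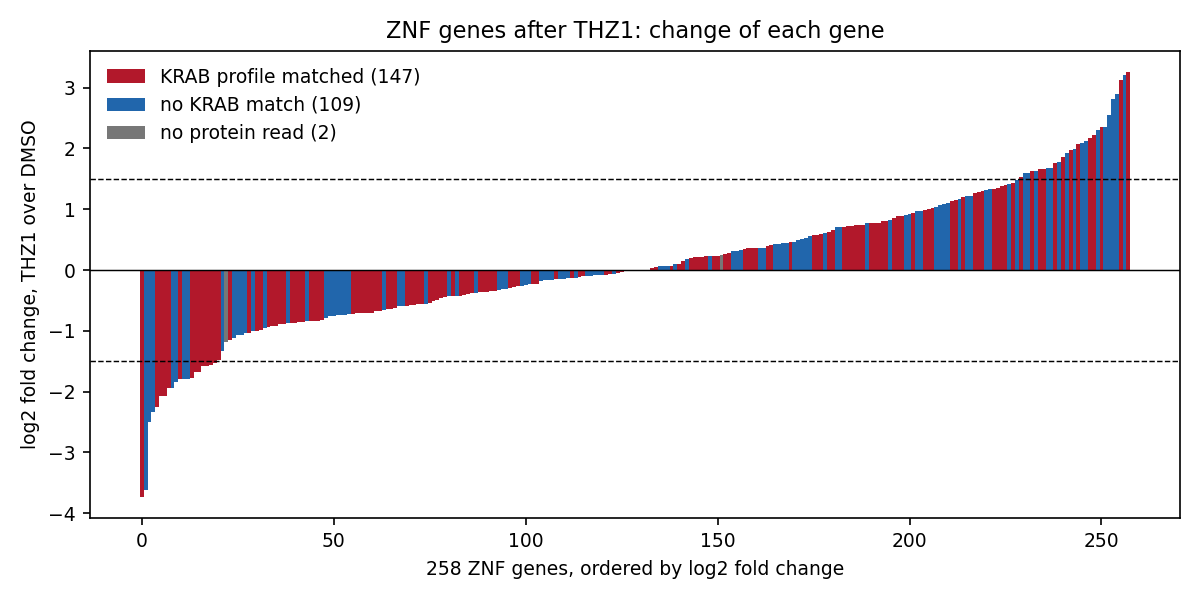
Log2 fold change, THZ1 over DMSO, of the 258 ZNF genes (vertical axis), ordered from lowest to highest (horizontal axis). Each bar is a gene, coloured by whether the protein matched the KRAB profile, and dashed lines mark 1.5 in each direction; both colours run through the whole range from -3.73 to 3.26.

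The floor on the DMSO level was part of the choice of genes and used 3 of the 6 libraries compared, so these counts are a description of the family and no evidence of its direction. Protein-coding genes of any name at or above the same floor numbered 8775, of which 8773 were tested and 20.7% were called (6.79% higher and 13.9% lower), with a median of -0.30. Without the fold threshold 83.9% of them were called (31.3% higher and 52.7% lower), and the treatments did not overlap for 84.2%. Of the 500 ZNF genes by name in the count table, with no floor, 395 passed the filter, and 61 were called higher and 34 lower (24.1%), with a median of 0.094. The 137 of them that passed the filter and are outside the 258 had 32 called higher and 14 lower and a median of 0.39. The related families ZBTB, ZSCAN, ZKSCAN and ZFP had 70 genes tested, of which 11 were called higher and 6 lower, with a median of 0.32. The balance of calls in the 258 genes moved with the scaling, being 39 higher and 14 lower with upper quartile factors and 20 and 22 when only library size was used, and the median of all genes moved by 0.19 and -0.25 under these settings. When the log2 FPKM table was tested with limma, which changes the quantification, the length correction and the test together, 18 were higher and 22 lower, and the median of all genes moved by -0.26. The sign of the deposited log2 FPKM difference was that of the counts for 227 of the 258 genes, including all 49 called.

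The highest change belonged to ZNF213 (GRCh37 chr16:3179778-3192805, plus strand), which encodes a protein with both a KRAB and a SCAN domain and 5 fingers. Its level was 12.9, 13.5 and 13.9 CPM in the DMSO-treated libraries and 130, 121 and 136 CPM in the THZ1-treated libraries. Every THZ1-treated library was far above every DMSO-treated library, and the log2 fold change was 3.26 (SE 0.09, edgeR adjusted p = 2.1e-24). Gene positions from here on are those of GENCODE 44 on GRCh37. The gene shares its locus with ZNF213-AS1 on the opposite strand. The strand setting of the counting is not given in the sources used here, so reads of the pair cannot be told apart.

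ZNF703 (chr8:37553300-37557537), a transcriptional co-repressor known as an oncogene of luminal breast cancer, matched no finger by the regular spacing and no KRAB domain. It measured 10.9, 12.05 and 12.6 CPM with DMSO and 110, 113 and 106 CPM with THZ1, with no overlap, a log2 fold change of 3.21 (SE 0.10) and an edgeR adjusted p of 6.9e-24. ZNF747 (chr16:30541688-30546668) and ZNF768 (chr16:30535325-30538142) lie beside each other on the minus strand. ZNF747, a KRAB protein, gave 7.69, 7.54 and 9.87 CPM with DMSO and 73.4, 73.6 and 72.6 CPM with THZ1. ZNF768, a protein with 10 fingers that binds an old family of repeats called MIR, gave 34.2, 27.9 and 37.8 CPM with DMSO and 247, 250 and 247 CPM with THZ1. Neither gene showed overlap between treatments. The log2 fold changes were 3.13 (SE 0.11) for ZNF747 and 2.90 (SE 0.09) for ZNF768, with edgeR adjusted p-values of 6.3e-22 and 8.2e-24. Both overlap ENSG00000261459 on their own strand, and the part of its reads was not tested.

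ZNF79 (chr9:130186653-130207651), with 11 fingers and no KRAB match, was among the lowest of the risen genes with DMSO. It measured 4.05, 4.67 and 5.99 CPM with DMSO and 35.4, 33.8 and 34.2 CPM with THZ1, with a log2 change of 2.81 (SE 0.14, edgeR adjusted p = 6.9e-18). ZNF524 (chr19:56111388-56114504), which binds telomeric repeats and overlaps FIZ1 on the opposite strand, measured 8.52, 6.39 and 12.1 CPM with DMSO and 50.6, 56.2 and 50.7 CPM with THZ1, with a log2 change of 2.55 (SE 0.14, edgeR adjusted p = 3.5e-17). The treatments did not overlap in either gene. The other 23 genes called higher had log2 fold changes between 1.53 and 2.35.

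At the other end stood ZNF700 (chr19:12035883-12061588), a KRAB protein with 18 fingers encoded in a cluster of ZNF genes. Its level was 33.1, 36.3 and 32.5 CPM with DMSO and 3.16, 2.63 and 1.87 CPM with THZ1, with a log2 change of -3.73 (SE 0.17, edgeR adjusted p = 3.7e-19). The lowest THZ1-treated library still held 14 counts. ZNF704 (chr8:81540686-81787016), a gene that spans 246 kb, measured 19.2, 24.5 and 20.8 CPM with DMSO and 1.45, 1.52 and 2.27 CPM with THZ1, with a log2 change of -3.61 (SE 0.21, edgeR adjusted p = 1.4e-16). Every THZ1-treated library was below every DMSO-treated library for both genes.

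ZNF839 (chr14:102783714-102809039) measured 22.1, 21.8 and 27.0 CPM with DMSO and 4.73, 3.18 and 4.55 CPM with THZ1, with a log2 change of -2.50 (SE 0.17, edgeR adjusted p = 1.1e-14). It overlaps CINP on the opposite strand, so reads of the pair cannot be told apart. ZNF362 (chr1:33722093-33766320) is a close relative of ZNF384, and both genes are known as fusion partners in B-ALL. Its level was 13.7, 15.1 and 13.5 CPM with DMSO and 1.45, 4.71 and 2.27 CPM with THZ1, with a log2 change of -2.34 (SE 0.23, edgeR adjusted p = 8.1e-11). The THZ1-treated libraries of ZNF362 differed among themselves more than those of any other of the 258 genes, with a coefficient of variation of 60.3%. Without THZ1 replicate 2 the log2 change of ZNF362 was -2.93, and without THZ1 replicate 1 it was -2.02.

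The KRAB genes ZNF37A and ZNF780B closed the lower end. ZNF37A (chr10:38383262-38439221) measured 37.5, 48.5 and 38.7 CPM with DMSO and 8.94, 9.14 and 8.02 CPM with THZ1, with a log2 change of -2.26 (SE 0.13, edgeR adjusted p = 2.8e-16). ZNF780B (chr19:40534167-40562138) measured 13.4, 14.8 and 13.9 CPM with DMSO and 2.89, 3.05 and 4.01 CPM with THZ1, with a log2 change of -2.08 (SE 0.19, edgeR adjusted p = 1.3e-11). Neither overlapped between treatments. The other 14 genes called lower had log2 fold changes between -2.07 and -1.53. KRAB genes have near-identical copies, and how reads shared among copies were counted is not given in the sources used here, so values of single KRAB genes carry that uncertainty. ZNF700, ZNF704, ZNF839, ZNF362, ZNF37A and ZNF780B each overlap other annotated genes on their own strand, and the part of those reads was not tested.

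**Figure D2:**
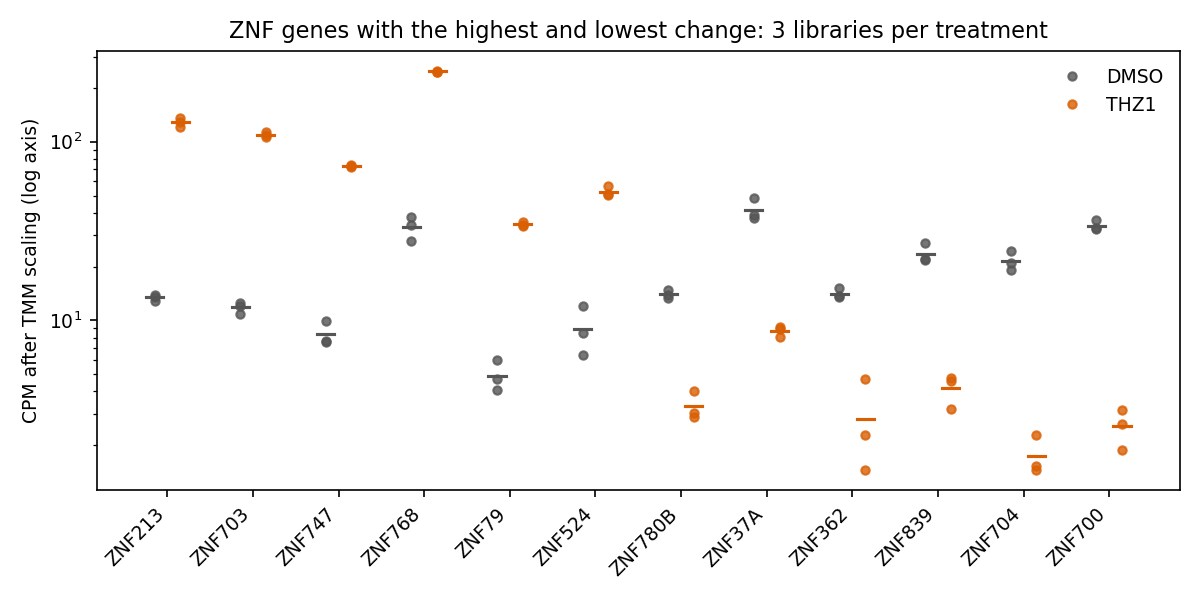
Level in CPM after TMM scaling (vertical log axis) of the 6 ZNF genes with the highest and the 6 with the lowest log2 fold change, with a point for each of 3 DMSO-treated (grey) and 3 THZ1-treated (orange) libraries and a bar at each mean. In all 12 genes the points of the treatments stand apart, from 12.9 to 13.9 against 121 to 136 CPM in ZNF213 to 32.5 to 36.3 against 1.87 to 3.16 CPM in ZNF700.

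The genes with most counts changed little or rose. ZNF207, which binds microtubules and loads the checkpoint protein BUB3 on kinetochores, measured 212, 218 and 217 CPM with DMSO and 216, 211 and 211 CPM with THZ1. Its treatments overlapped and it was not called, with a log2 fold change of -0.02 (SE 0.07, edgeR adjusted p = 0.82) that became 0.18 with upper quartile factors. ZNF22 measured 173 to 179 CPM with DMSO and 155 to 163 CPM with THZ1 and was not called (-0.14, SE 0.07, edgeR adjusted p = 0.057). ZNF608 measured 150 to 201 CPM with DMSO and 151 to 163 CPM with THZ1 and was not called either (-0.15, SE 0.08, edgeR adjusted p = 0.081). ZNF24, a SCAN protein that acts as a transcriptional repressor, rose from 93.8 to 110 CPM with DMSO to 225 to 238 CPM with THZ1, with a log2 change of 1.18 (SE 0.07, edgeR adjusted p = 9e-16). The 4 genes nearest to 0, ZNF519, ZNF236, ZNF235 and ZNF776, had log2 fold changes within 0.01 of 0 with standard errors of 0.12 to 0.14, and their treatments overlapped. In the deposited log2 FPKM table these 4 genes were lower with THZ1 by differences of -0.75, -0.68, -0.44 and -0.29.

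Regulators of chromatin and transcription were described by a list of 22 genes, of which 17 were among the 258. At any fold 10 rose and 6 fell, and past the fold threshold 2 were higher and 1 lower, with a median of 0.23, beside -0.0020 over the whole family. The share called past the fold threshold was 17.6%, beside 37.5% of all genes tested, of which 84.5% were called at any fold. ZNF703 and ZNF362 are given above. ZNF263, a KRAB and SCAN protein, measured 72.3, 73.0 and 64.9 CPM with DMSO and 204, 230 and 216 CPM with THZ1, with no overlap and a log2 fold change of 1.63 (SE 0.08, edgeR adjusted p = 5.7e-19). The gene overlaps TIGD7 on the opposite strand, and the part of TIGD7 reads was not tested. ZNF281, which binds G-rich promoters and is known from stem cells, measured 28.3 to 37.7 CPM with DMSO and 84.6 to 92.2 CPM with THZ1 and rose by 1.41 (SE 0.09, edgeR adjusted p = 5.7e-15).

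ZNF687 and ZNF592 are partners in a complex with the chromatin reader ZMYND8 and moved in opposite directions. ZNF687 measured 40.2 to 44.1 CPM with DMSO and 73.1 to 85.3 CPM with THZ1, with a log2 change of 0.92 (SE 0.09, edgeR adjusted p = 2.1e-11). ZNF592 measured 72.1 to 81.1 CPM with DMSO and 62.3 to 66.7 CPM with THZ1, with a log2 change of -0.26 (SE 0.08, edgeR adjusted p = 0.0046). ZNF335, a subunit of histone H3K4 methyltransferase complexes, rose from 42.5 to 45.3 CPM with DMSO to 78.1 to 84.6 CPM with THZ1 (0.91, SE 0.08, edgeR adjusted p = 1.1e-11). ZNF217, an oncogene that works with CtBP and LSD1, rose from 98.7 to 127 CPM with DMSO to 155 to 165 CPM with THZ1 (0.51, SE 0.08, edgeR adjusted p = 6.4e-07). None of these 4 genes overlapped between treatments. Upper quartile factors moved the median of all genes by 0.19, a shift close in size to the change of ZNF592. ZNF687 overlaps PI4KB and ZNF687-AS1 on the opposite strand. ZNF217 and ZNF592 also overlap other annotated genes, and the part of all those reads was not tested.

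ZNF644, a partner of the histone methyltransferase EHMT2, measured 68.8 to 89.0 CPM with DMSO and 42.7 to 53.3 CPM with THZ1, with a log2 change of -0.74 (SE 0.10, edgeR adjusted p = 2.8e-08). ZNF384, the B-ALL fusion partner, measured 74.2 to 83.6 CPM with DMSO and 50.7 to 56.5 CPM with THZ1, with a log2 change of -0.59 (SE 0.08, edgeR adjusted p = 1.4e-07). ZNF91, which silences SVA elements, fell from 20.9 to 24.7 CPM with DMSO to 13.6 to 18.3 CPM with THZ1 (-0.62, SE 0.13, edgeR adjusted p = 8.3e-05). These 3 genes did not overlap between treatments. ZNF93, which silences L1 elements, overlapped, with 13.9 to 16.1 CPM against 10.4 to 13.98 CPM (-0.37, SE 0.15, edgeR adjusted p = 0.022). ZNF93 was no longer called without THZ1 replicate 1 or without THZ1 replicate 3, with -0.32 and -0.30.

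ZNF274, which brings SETDB1 to the ends of other ZNF genes, gave 0.25 (SE 0.11, edgeR adjusted p = 0.032), ZNF148 gave 0.23 (SE 0.10, edgeR adjusted p = 0.031), and ZNF131 gave 0.18 (SE 0.08, edgeR adjusted p = 0.048). With library sizes alone, which moved the median of all genes by -0.25, they gave -0.00023, -0.020 and -0.071, so the shift is as large as these changes. Each of these 3 calls was also lost when single libraries were left out. ZNF451, a SUMO ligase, overlapped between treatments and was not called (-0.09, SE 0.09, edgeR adjusted p = 0.35).

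Proteins with a ZNF symbol that work on RNA, the ribosome or the spindle numbered 10 of 11 listed. In edgeR and in DESeq2 0 passed the fold threshold, 5 rose and 3 fell at any fold (also 5 and 3 at an unadjusted p-value below 0.05), beside 37.5% of all genes past the fold threshold and 84.5% at any fold, and the median was 0.14. ZNF622, needed for the maturation of the large ribosomal subunit, measured 40.3, 32.6 and 38.3 CPM with DMSO and 84.0, 81.4 and 94.2 CPM with THZ1, with a log2 change of 1.22 (SE 0.09, edgeR adjusted p = 9.6e-14). ZNF598, the ubiquitin ligase that marks collided ribosomes, measured 162, 144 and 178 CPM with DMSO and 356, 317 and 324 CPM with THZ1, with a log2 change of 1.04 (SE 0.08, edgeR adjusted p = 4.2e-14). ZNF593, which accompanies the export of the large ribosomal subunit, measured 45.8, 42.0 and 56.1 CPM with DMSO and 89.2, 83.1 and 82.6 CPM with THZ1, with a log2 change of 0.83 (SE 0.09, edgeR adjusted p = 1.1e-09). The libraries of the treatments did not overlap in these ribosomal genes, and THZ1 was higher in all of them.

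ZNF106, an RNA-binding protein, showed the largest fall of the list, from 72.2, 77.9 and 66.5 CPM with DMSO to 38.5, 34.7 and 32.8 CPM with THZ1, with a log2 change of -1.03 (SE 0.09, edgeR adjusted p = 8.5e-12). ZNF326, which couples elongation by RNA polymerase II to splicing, gave -0.38 (SE 0.08, edgeR adjusted p = 8.7e-05), and ZNF638, an RNA-binding protein of nuclear speckles, gave -0.32 (SE 0.08, edgeR adjusted p = 0.00021). ZNF830, a splicing-associated protein, gave 0.43 (SE 0.10, edgeR adjusted p = 0.00018), and the nucleolar protein ZNF330 gave 0.31 (SE 0.08, edgeR adjusted p = 0.00069). ZNF706 and ZNF207 overlapped between treatments and were not called.

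**Figure D3:**
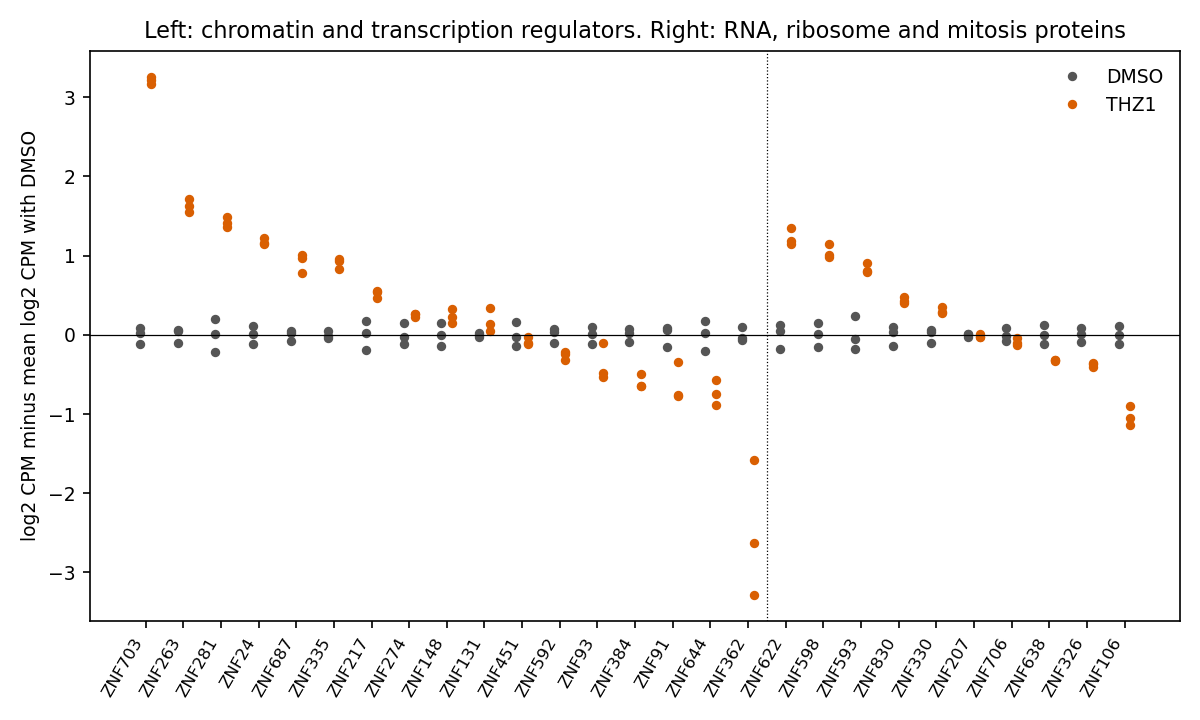
Log2 CPM of each library minus the mean log2 CPM of the 3 DMSO-treated libraries (vertical axis) for the ZNF genes of the list of chromatin and transcription regulators (left of the dotted line) and of RNA, ribosome and mitosis proteins (right), with 3 DMSO-treated (grey) and 3 THZ1-treated (orange) points per gene. Only ZNF703 and ZNF263 rose and ZNF362 fell past 1.5, and the THZ1 points of ZNF362 are the most spread.

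The domains of the proteins were read from the reference transcripts for 256 of the 258 genes, and 147 matched a KRAB profile. The KRAB genes were lower expressed than the rest, with a median level of 3.92 to 4.11 on the log2 CPM scale in the DMSO-treated libraries compared with 4.96 to 5.04 for the 109 genes without KRAB, a scale that is not corrected for length. After THZ1, 13 KRAB genes were called higher and 13 lower, with a median log2 fold change of -0.050. Of the genes without KRAB, 16 were higher and 7 lower, with a median of 0.073. The sign of both medians changed with the scaling and the table, the KRAB median being 0.14 with upper quartile factors, -0.30 with unadjusted library sizes and -0.52 in the log2 FPKM table. The 16 genes with a SCAN domain had 3 called higher and 2 lower, beside 37.5% of all genes called, and a median of 0.58, and all 16 did not overlap between treatments, beside 84.7% of all genes. The number of fingers, with a median of 10 and up to 36, had a Spearman correlation of -0.11 with the log2 fold change across 256 genes, which share the libraries and are not independent.

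The partners of the KRAB domain were followed in a list of 20 co-repressor genes, of which 18 were tested. EHMT2 was called higher and CBX5 lower, 6 rose and 10 fell at any fold, and the median was -0.59, beside 37.5% of all genes called, 84.5% at any fold, and a median of -0.30 over protein-coding genes above the floor. TRIM28, the co-repressor that binds KRAB, measured 646, 566 and 702 CPM with DMSO and 1221, 1245 and 1268 CPM with THZ1, with a log2 change of 0.96 (SE 0.07, edgeR adjusted p = 1.4e-13). SETDB1 overlapped between treatments, with 60.8 to 70.0 CPM against 53.4 to 63.1 CPM, and was not called (-0.15, SE 0.09, edgeR adjusted p = 0.12). EHMT2, a histone H3K9 methyltransferase, rose from 185 to 199 CPM to 587 to 639 CPM (1.66, SE 0.07, edgeR adjusted p = 2.9e-20), and HDAC1, a histone deacetylase, rose from 233 to 259 CPM to 566 to 581 CPM (1.22, SE 0.07, edgeR adjusted p = 5.0e-17). CBX5, which encodes the heterochromatin protein HP1 alpha, fell from 233 to 323 CPM to 84.9 to 89.4 CPM (-1.66, SE 0.09, edgeR adjusted p = 1.9e-17), and the HUSH-associated MORC2 fell from 39.0 to 40.2 CPM to 17.2 to 20.6 CPM (-1.02, SE 0.11, edgeR adjusted p = 2.5e-10). EHMT2, CBX5 and MORC2 overlap other annotated genes on the opposite strand, and the part of those reads was not tested.

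Short ZNF genes stood higher after THZ1 and long ones lower. Gene span, from first to last exon in GENCODE 44 on GRCh37, had a median of 8.46 kb in the 29 genes called higher and of 29.3 kb in the 20 called lower, compared with 25.2 kb over the 258. Of the 65 shortest genes, up to 13.1 kb, 19 were called higher and 1 lower, with a median log2 fold change of 0.90. The calls were 29.2% and 1.54% of these genes, beside 24.6% of all genes tested called higher and 12.9% lower. The next 64 genes had a median of 0.040, with 6 called higher and 3 lower, and the 64 after them a median of -0.19, with 4 higher and 10 lower. Of the 65 longest genes, from 42.8 kb, 0 were called higher and 6 lower in edgeR as in DESeq2, 13 were higher and 34 lower without the fold threshold or at an unadjusted p-value below 0.05, and the median was -0.30.

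In single libraries the same order was seen. The median level of the 65 shortest genes relative to their DMSO means was 0.92, 0.90 and 0.88 on the log2 scale in the 3 THZ1-treated libraries, beside -0.05 to 0.05 with DMSO. For the 65 longest it was -0.24, -0.27 and -0.34 with THZ1 and -0.11 to 0.12 with DMSO. Other protein-coding genes above the floor showed the same order over the same limits of span, with medians of 0.22, -0.18, -0.40 and -0.58 over 2173, 1579, 1430 and 3333 genes. Within the shortest limits 332 of them were called higher and 128 lower, and within the longest 55 higher and 682 lower. Across the 258 genes the Spearman correlation of span with log2 fold change was -0.42, and over the other scalings, filters on counts, tools and tables, the replicate block and each library left out it lay between -0.44 and -0.41. It was -0.32 across the 8773 protein-coding genes above the floor, -0.30 within the KRAB genes and -0.52 within the genes without KRAB. These correlations describe genes measured in the same 6 libraries. Exon number (-0.31) and transcript length (-0.23) gave weaker correlations in the 258 genes. The separate parts of span, exon number, transcript length and level were not tested.

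**Figure D4:**
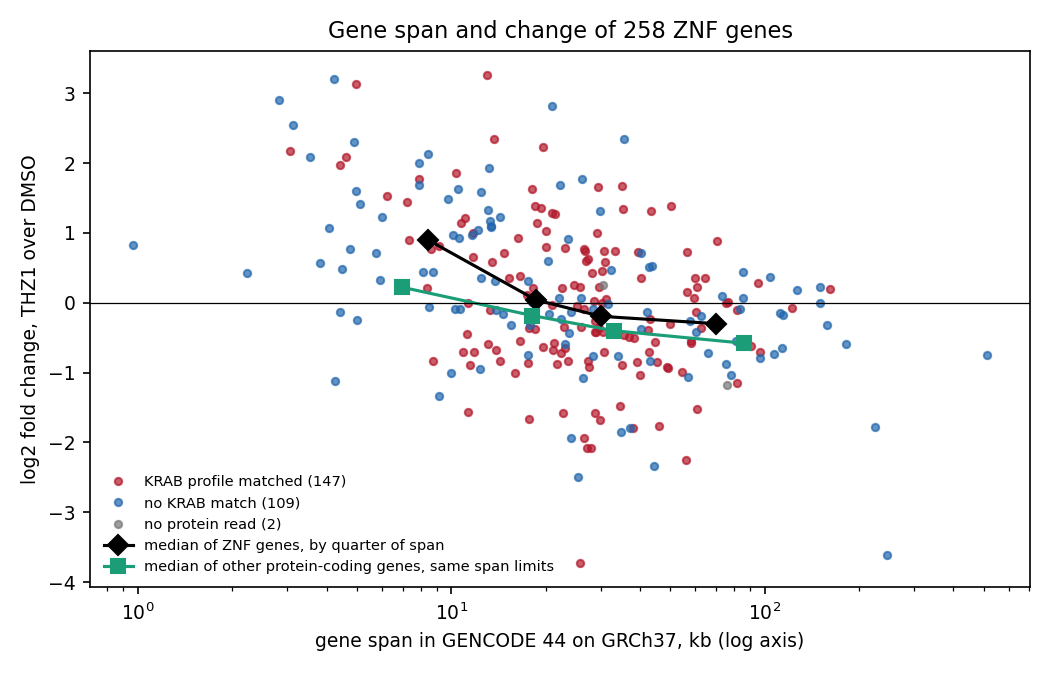
Gene span in kb on GRCh37 (horizontal log axis) against log2 fold change, THZ1 over DMSO (vertical axis), with a point for each of the 258 ZNF genes, coloured by KRAB. Black diamonds mark the medians of the ZNF genes in each of 4 groups by span (0.90, 0.040, -0.19 and -0.30) and green squares those of other protein-coding genes within the same limits (0.22, -0.18, -0.40 and -0.58), both falling with span.

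The ZNF genes of chromosome 16 had a higher median change than those of chromosome 19, which holds 113 of the 258. On chromosome 16, 7 of 22 genes were called higher and 0 lower in edgeR (8 and 0 in DESeq2), 17 rose and 2 fell at any fold, as at an unadjusted p-value below 0.05, beside 24.6% of all genes called higher and 84.5% called at any fold, and the median was 1.25. On chromosome 19, 10 were higher and 8 lower, with a median of 0.051. The median span was 13.4 kb for the genes of chromosome 16 and 23.0 kb for those of chromosome 19. The parts of span and chromosome cannot be told apart. Neighbouring genes were grouped into runs with gaps of at most 1 Mb, which gave 12 runs of 5 or more genes.

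The highest median was that of a run of 12 genes from ZNF48 to ZNF267 on chromosome 16 (GRCh37 chr16:30389427-31928678). Relative to the DMSO mean of each gene, its median level was 1.36, 1.26 and 1.25 on the log2 scale in the THZ1-treated libraries and between -0.08 and 0.04 in the DMSO-treated libraries. In the run 4 genes were called higher, namely ZNF747, ZNF768, ZNF688 and ZNF764, 0 were called lower in edgeR or DESeq2, and 9 rose and 1, ZNF771, fell at any fold or at an unadjusted p-value below 0.05. Beside this, 24.6% of all genes tested were called higher, 12.9% lower and 84.5% at any fold. Other protein-coding genes above the floor that lie between these ZNF genes numbered 21, of which 7 were called higher and 1 lower, with a median of 0.56. A run of 5 genes nearer the end of the short arm, from ZNF213 to ZNF174, held ZNF213 and ZNF263 and had a median of 0.58.

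The longest run held 38 genes at the end of chromosome 19, from ZNF628 to ZNF446 (GRCh37 chr19:55987984-58992597), of which 25 carry KRAB. Its median relative to DMSO was 0.76, 0.88 and 0.83 on the log2 scale in the THZ1-treated libraries and 0.00 to 0.07 in the DMSO-treated libraries. In this run 7 genes were called higher and 0 lower in edgeR as in DESeq2, and 26 rose and 5 fell at any fold or at an unadjusted p-value below 0.05. Of all genes tested, 24.6% were called higher, 12.9% lower and 84.5% at any fold. Other protein-coding genes above the floor that lie between these ZNF genes numbered 9, with 1 called higher, 0 lower and a median of 1.30. The other 7 runs of chromosome 19 had medians between -0.44 and 0.39. The run of 12 genes from ZNF653 to ZNF791, which holds ZNF700, had 0 called higher and 3 lower in edgeR as in DESeq2 (3 and 5 at an unadjusted p-value below 0.05) and a median of -0.31, and the run of 11 from ZNF101 to ZNF493, which holds ZNF93, had a median of -0.39. The lowest median, -0.85, was that of 7 genes from ZNF736 to ZNF92 on chromosome 7, where 5 fell and only ZNF92 rose. The runs with high medians had short genes, with a median span of 11.6 kb in the run of 12 on chromosome 16 and 11.5 kb at the end of chromosome 19, compared with 43.2 kb in the run on chromosome 7. The run from ZNF575 to ZNF296 on chromosome 19 also had short genes, with a median span of 13.3 kb, and a median log2 fold change of 0.0040. The part of span in the medians of the runs was not tested, and span and position cannot be told apart.

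**Figure D5:**
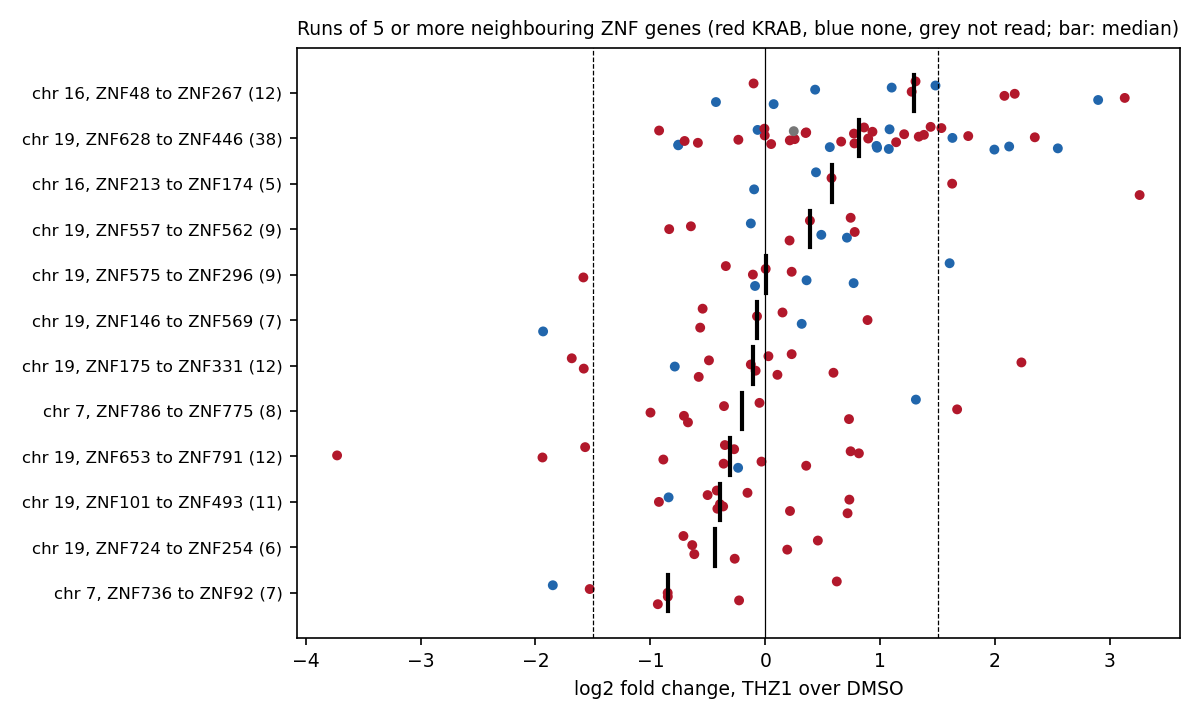
Log2 fold change, THZ1 over DMSO (horizontal axis), of the ZNF genes in each of 12 runs of 5 or more neighbours (vertical axis, named by first and last gene, with the number of genes), coloured by KRAB, with a bar at each median and dashed lines at 1.5. Medians run from -0.85 on chromosome 7 to 1.29 on chromosome 16, and no gene of the 38 at the end of chromosome 19 lies below -1.5.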

How the data were processed

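RNA of NALM6 cells was measured in 3 DMSO-treated and 3 THZ1-treated libraries. Raw counts per gene were deposited by the authors, who mapped filtered reads to GRCh37 with STAR and counted them with htseq-count, per the methods and the submitters' processing notes, which also name cutadapt and RSEM. The annotation and strand setting of the counting are not given in the sources used here. The second deposited table holds log2 values of FPKM from RSEM, read as log2(FPKM + 1), whose libraries of a treatment have nearly the same distribution, by a step not given in the sources used here. It chose the genes and was otherwise an alternative. Its columns of p-values, fold changes and FDR are the authors' comparison and were not used.

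Counts were filtered by edgeR's filterByExpr (minimum count 10, minimum total 15), scaled by TMM and tested over all genes with glmQLFit and glmQLFTest of edgeR (quasi-likelihood, two-sided). P-values were adjusted by the method of Benjamini and Hochberg, and CPM values use the TMM library sizes. The standard errors (SE) were derived from this test, as the size of the log2 fold change divided by the square root of its F statistic. No unmapped column of per-sample values was present. The genes named are the 6 highest and 6 lowest log2 fold changes among members with at least 5 CPM and no overlap, the 5 with most counts, the 4 nearest 0, those at the floor, and the role lists. ZNF837, ZNF688, ZNF764, ZNF771, ZNF92 and the ends of the runs were named after their values were seen. The genes, lists and tests were chosen with earlier results of these data known, and span, chromosome and run summaries were added after seeing the data. KRAB and SCAN domains were found with pyhmmer profiles (E below 0.001) and fingers by their spacing, in proteins translated from the reference transcripts. Of 2 genes the frame was broken in this annotation and no protein was read. The edgeR steps were also run on simulated counts in which few genes changed, equally in both directions. The deposited data differ, with 84.5% of all genes called at any fold, so the scaling under such wide change was not tested.

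The alternatives changed the scaling (RLE, upper quartile or no factors), the tool (DESeq2, or limma on the log2 FPKM table), the filter, the fold and the floor, added a replicate block, or dropped 1 library at a time. Replicate libraries differed by more than sampling noise, so each was counted as its own library. R 4.3.3, edgeR 4.0.16, limma 3.58.1, DESeq2 1.42.0, Python 3.11.15, pandas 2.3.3, scipy 1.17.1, pyhmmer 0.12.3 and matplotlib 3.10.9 were used.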

Additional observations from a re-analysis of the deposited data

How the results depend on the processing

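With 3 libraries a treatment, small changes near the threshold depended on single libraries, and the middle of the family on the scaling. Same-numbered libraries of the treatments did not deviate together (correlations of -0.0040, 0.00097 and 0.021), and unlike-numbered libraries gave -0.018 to 0.017. No pairing by number was seen, but values of this size cannot settle whether libraries were paired by culture or day. With the replicate block 29 of the 258 genes were called higher and 20 lower. The numbers of ZNF genes called higher and lower, of the 258, were 108 and 97 at any fold, 53 and 30 at a log2 fold change of at least 1, 18 and 22 by limma on the log2 FPKM table, with or without a mean FPKM of at least 1, and 22 and 38 at log2(FPKM + 0.1). Other floors chose other genes, of which 15 were higher and 12 lower among the 136 above a floor of 3.5, and 35 and 9 among the 220 above the floor on the mean of all 6 libraries (median 0.29). By name alone they were 171 and 133 at any fold, 97 and 60 at a log2 fold change of at least 1, 24 and 29 higher in the deposited values and at log2(FPKM + 0.1), 66 lower at log2(FPKM + 0.1), and 15 lower with at least 10 counts in every library. Over all genes, 7224 were higher and 6826 lower at any fold, 3763 lower at a log2 fold change of at least 1, 1821 higher and 1178 lower where every library had 10 counts or more, 6996 higher with no filter and 6368 higher in DESeq2.

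Medians are given in the order 258 genes, ZNF by name, KRAB, without KRAB, co-repressors, and ZBTB, ZSCAN, ZKSCAN and ZFP. They were 0.066, 0.16, 0.018, 0.14, -0.52 and 0.38 with RLE factors, 0.19, 0.29, 0.14, 0.27, -0.39 and 0.51 with upper quartile factors, and -0.25, -0.15, -0.30, -0.18, -0.84 and 0.068 with library sizes alone. They were 0.13, 0.28, 0.091, 0.21, -0.45 and 0.45 where every library had 10 counts or more, -0.36, -0.39, -0.52, -0.13, -0.69 and 0.0022 in the log2 FPKM table (-0.38 by name at a mean FPKM of at least 1), and -0.39, -0.44, -0.59, -0.14, -0.72 and 0.0016 at log2(FPKM + 0.1). With no filter the first 4 were -0.089, 0.0081, -0.14 and -0.014, and in DESeq2 the last 3 were 0.092, -0.48 and 0.42. With 1 library dropped at a time they were -0.074 to 0.044 for the 258, 0.064 to 0.17 by name, -0.11 to 0.0063 for KRAB, -0.0053 to 0.094 without KRAB, -0.63 to -0.47 for the co-repressors and 0.23 to 0.36 for the other families.

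Signs of single genes turned in ZNF207 (0.18 with upper quartile factors), in ZNF148, ZNF274 and ZNF131 with library sizes alone (-0.020, -0.00023 and -0.071), and in the log2 FPKM table as deposited and at log2(FPKM + 0.1) in ZNF519 (-0.75 and -0.93), ZNF236 (-0.68 and -0.82), ZNF235 (-0.44 and -0.50), ZNF726 (-0.35 and -0.43), ZNF782 (-0.69 and -0.87), ZNF234 (-0.38 and -0.46), ZNF169 (-0.67 and -0.85), ZNF148 (-0.10 and -0.11) and ZNF274 (-0.13 and -0.14). The causes were not tested. With a library left out, calls at any fold were lost for ZNF274 and ZNF131 in 5 of 6 cases (ZNF274 0.17 to 0.30, ZNF131 0.08 to 0.23) and for ZNF148 without DMSO replicate 1 (0.14), THZ1 replicate 1 (0.17) or THZ1 replicate 3 (0.22), while calls appeared without DMSO replicate 3 for ZNF22 (-0.17), ZNF451 (-0.17), ZNF608 (-0.27) and SETDB1 (-0.20). That of ZNF22 also appeared without DMSO replicate 2 (-0.16). The call of ZNF234 was lost in 4 of 6 cases, with the lowest value without DMSO replicate 3 (0.19).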
